A study of Mus musculus with 3 samples.

Results

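The genes of V(D)J recombination were described in 3 BCR::ABL1+ mouse cell lines that carry kinase inactive CDK6. The 10 genes were chosen by symbol: the recombinase genes Rag1 and Rag2, the terminal transferase gene Dntt, and the end-joining genes Xrcc5, Xrcc6, Prkdc, Dclre1c, Xrcc4, Lig4 and Nhej1. When they were chosen, it was already known from these counts that Rag1 differed between the lines. Each symbol matched 1 row, so that all 10 were found among the 50686 genes of the count table, and all 10 had enough counts to be tested. The study set lines with kinase inactive CDK6 beside lines with wildtype CDK6 and lines lacking CDK6, to follow gene expression by genotype. Only the kinase inactive group is described here, and the wildtype and knock-out lines were not analysed here.

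The group comprised lines 1, 2 and 3 (K43M, replicates 1 to 3). Each was grown out from bone marrow of C57BL/6 mice homozygous for the CDK6 mutant K43M (Cdk6 KM/KM) after retroviral transfer of BCR-ABL(p185), and the cell type given is Pre/Pro-B-cells. All lines therefore share the mutant kinase, the viral oncogene and selection by outgrowth in culture, and the age and sex of the donor mice were not given in the sources used here. Poly(A) RNA was sequenced to 21569845, 19633463 and 25773221 counted reads in lines 1, 2 and 3. Cdk6 itself was counted at 450, 334 and 239 CPM (read counts per 1000000 reads of the scaled library), which does not check the genotype, since a point mutant is still transcribed. With 1 genotype and 1 library a line, the comparison is between lines, and a test between libraries says how these libraries differ, not how genotypes differ.

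V(D)J recombination assembles the variable exons of immunoglobulin and T cell receptor genes from separate segments in developing lymphocytes. RAG1 and RAG2 together form the recombinase that cuts the DNA at recombination signals beside the segments. TdT, encoded by Dntt, adds nucleotides without a template at the joints, and non-homologous end joining seals them: the Ku heterodimer (Xrcc6 and Xrcc5) binds the ends, DNA-PKcs (Prkdc) with Artemis (Dclre1c) opens the hairpins, and XRCC4, DNA ligase IV and XLF (Nhej1) close the break. The Rag genes are largely limited to lymphocyte precursors, whereas end-joining factors act in most cells.

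The recombinase and TdT genes varied most between the lines, and the Ku subunits and XLF varied least. Rag1 and Rag2 were highest in line 2, Dntt was highest in line 3, and Lig4 was lowest in line 1. For each gene a chi-square test asked whether the counts were shared between libraries as the scaled library sizes predict, with Benjamini-Hochberg adjustment over the 13974 genes with at least 10 counts in total. Of the 10 genes, 9 passed at an adjusted p under 0.05, against 66.8% of all genes tested, and the exception was Nhej1. When the highest line also had to be at least 1.5 times the lowest, 5 passed (Rag1, Rag2, Dntt, Prkdc and Lig4), against 28.4% of all genes tested, and at a ratio of at least 2, 3 passed (Rag1, Rag2 and Dntt), against 18.5%. At these depths the test calls most genes, so the size of each difference is given throughout. The 10 genes together made up 353, 501 and 395 CPM in lines 1, 2 and 3. Of the 8 genes with a mean of at least 5 CPM, which leaves out Dntt and Nhej1, 4 passed with a ratio of at least 1.5, against 22.9% of tested genes at that level, and 2, Rag1 and Rag2, with a ratio of at least 2, against 10.3%. The count of 5 depended on single lines: without line 2 only Dntt and Lig4 passed with a ratio of at least 1.5, against 21.1% of the genes then tested, and without line 3 only Rag1, Rag2 and Lig4 did, against 14.5%.

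The lines were also compared pair by pair, and Rag1 passed the test in all 3 pairs. Between lines 1 and 2, 5 of the 10 genes passed the test (43.6% of all genes), and 3 also had a ratio of at least 1.5 (13.8% of all genes): Rag1, Rag2 and Lig4. Between lines 1 and 3, 6 passed (52.4% of all genes), and Dntt and Lig4, 2 in number, reached the ratio (20.4% of all genes). Between lines 2 and 3, 7 passed (51.8% of all genes), and 4 reached the ratio (19.1% of all genes), Rag1, Rag2, Dntt and Prkdc. Pairs share lines, so these counts are not independent of each other.

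**Figure D1:**
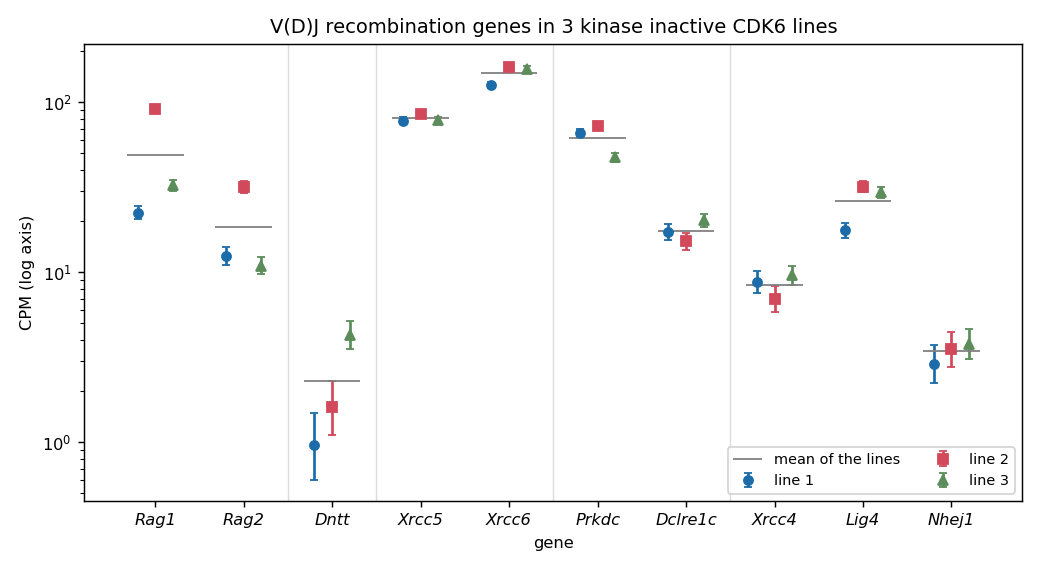
The levels of the 10 genes in each line are plotted as CPM on a log axis, grouped by role from left to right as recombinase, terminal transferase, Ku, DNA-PKcs with Artemis, and ligation complex. Points are lines, error bars are exact Poisson 95% intervals that cover counting error only, and grey bars are means of the 3 lines. Rag1 ran from 22.4 to 91.4 CPM, while the 3 points of Xrcc5 lay between 77.9 and 85.2 CPM.

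Rag1, the catalytic subunit of the recombinase, was counted 487 times in line 1, 1805 times in line 2 and 826 times in line 3. These counts correspond to 22.4, 91.4 and 32.4 CPM, with exact Poisson 95% intervals of 20.5 to 24.5, 87.3 to 95.8 and 30.3 to 34.7 CPM, a mean of 48.8 ± 37.3 CPM (SD, n = 3). Line 2 stood far above the other lines, and no interval overlapped another. The ratio of line 2 to line 1 was 4.08, that of line 2 to line 3 was 2.82 and that of line 3 to line 1 was 1.45, and all 3 pairs passed the chi-square test after Benjamini-Hochberg adjustment (largest adjusted p = 4.56e-10). On the scale of log2(CPM + 1), the distance from the lowest to the highest line, called the range here, was 1.98 for Rag1, and 97.2% of all genes tested had a smaller one. Because the difference in Rag1 was known beforehand from the same counts, these values give its size and are not independent support for it.

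Rag2, the partner subunit that reads methylated histone H3 and holds the recombinase to the cell cycle, was counted 270, 628 and 279 times in lines 1, 2 and 3. Its levels were 12.4, 31.8 and 11.0 CPM (18.4 ± 11.6, SD, n = 3). Line 2 was again the high line, at 2.90 times line 3, whereas lines 1 and 3 were not told apart by the chi-square test (ratio 1.14, Benjamini-Hochberg adjusted p = 0.211). The range was 1.46 on the log2(CPM + 1) scale, larger than in 94.6% of all genes tested. Leaving out line 2 reduced the range of Rag1 to 0.50 and that of Rag2 to 0.19.

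The balance of the pair was not the same in every line. Rag1 took 64.3% of the reads of both genes in line 1 (exact Clopper-Pearson 95% interval 60.8 to 67.7), 74.2% in line 2 (72.4 to 75.9) and 74.8% in line 3 (72.1 to 77.3). Line 1 thus held relatively less Rag1, and its interval did not overlap those of the other lines. Per exon length, the level of Rag1 was 0.935, 1.49 and 1.53 times that of Rag2 in lines 1, 2 and 3.

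Both genes lie within 1 locus of chromosome 2 and face each other. In mm10 (GRCm38), Rag1 (ENSMUSG00000061311.6) covers chr2:101638282-101649501 on the minus strand and Rag2 (ENSMUSG00000032864.4) covers chr2:101624718-101632529 on the plus strand. The gene B230118H07Rik starts 31 bases from the start of Rag1 and shares 1.21% of the exon bases of Rag1 and 6.07% of those of Rag2. It was counted only 10, 31 and 16 times, with line 2 again highest. It lies on the same strand as Rag1, so reads of the bases shared with Rag1 cannot be told apart by strand. For the bases shared with Rag2, on the opposite strand, the strand setting was not given in the sources used here. The next gene tested, Traf6, an adaptor of innate immune receptors, had 85.4, 109 and 72.5 CPM, with line 2 highest. Commd9, farther out, had 20.9, 21.1 and 22.7 CPM and was not told apart between the lines (chi-square test, Benjamini-Hochberg adjusted p = 0.424). The median deviation of the 24 measured genes within 5 Mb of Rag1 moved by 0.10 between lines on the log2(CPM + 1) scale, and the range of Rag1 was 1.95 after subtracting it.

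**Figure D2:**
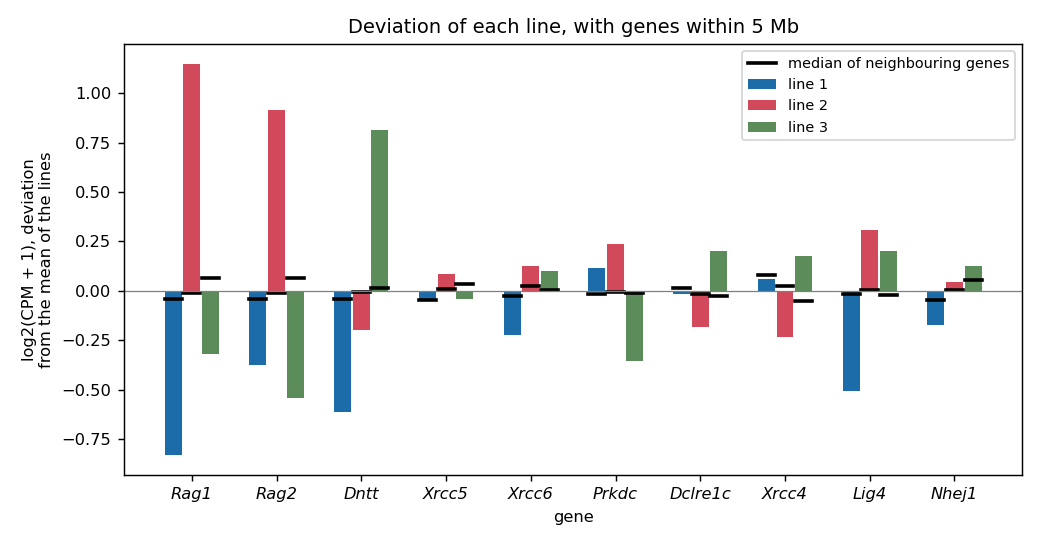
Bars give, for each gene, log2(CPM + 1) of a line minus the average over lines 1, 2 and 3, and black ticks give the median of the same quantity over the measured genes within 5 Mb. Rag1 and Rag2 rise above their neighbours in line 2, Dntt does so in line 3, and the ticks stay near 0 for every gene plotted.

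The 250 bases before the annotated starts of Rag1, Rag2 and Dntt are shown because these are the genes with the widest ranges, and the window of Lig4 is shown as a GC-rich counterpart. They were taken from RefSeq promoter windows of the build GRCm38.p6, in which 9 of the 10 genes were found and Prkdc was not. In the first 3 lines, capitals mark the ETS core GGAA, the CCAAT box CCAAT and the E-box CANNTG, searched on both strands. In the line of Lig4, capitals mark 2 overlapping matches, 1 on each strand, of the core of NRF-1, GCGCATGC.
Rag1 (chr2:101649533-101649782, minus strand): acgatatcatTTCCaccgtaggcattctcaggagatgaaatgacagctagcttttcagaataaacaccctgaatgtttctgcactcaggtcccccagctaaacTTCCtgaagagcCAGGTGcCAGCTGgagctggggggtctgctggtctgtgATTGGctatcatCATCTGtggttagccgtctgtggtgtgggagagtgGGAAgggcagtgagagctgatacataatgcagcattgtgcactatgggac
Rag2 (chr2:101624462-101624711, plus strand): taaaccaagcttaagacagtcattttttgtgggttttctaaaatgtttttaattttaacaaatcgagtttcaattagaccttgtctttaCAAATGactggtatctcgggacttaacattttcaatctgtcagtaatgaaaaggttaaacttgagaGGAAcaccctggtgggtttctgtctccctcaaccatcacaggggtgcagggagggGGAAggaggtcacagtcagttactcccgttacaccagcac
Dntt (chr19:41029025-41029274, plus strand): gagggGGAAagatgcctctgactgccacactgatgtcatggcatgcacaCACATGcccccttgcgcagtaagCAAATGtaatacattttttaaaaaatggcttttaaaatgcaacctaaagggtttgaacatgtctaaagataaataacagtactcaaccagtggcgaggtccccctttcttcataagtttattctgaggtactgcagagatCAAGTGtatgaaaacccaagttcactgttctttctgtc
Lig4 (chr8:9977681-9977930, minus strand): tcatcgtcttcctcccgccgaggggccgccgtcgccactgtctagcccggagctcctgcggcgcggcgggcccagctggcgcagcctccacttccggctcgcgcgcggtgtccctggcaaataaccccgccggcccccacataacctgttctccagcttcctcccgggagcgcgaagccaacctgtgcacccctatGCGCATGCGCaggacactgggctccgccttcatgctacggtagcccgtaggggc

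These windows differed in base composition. G and C made up 50.8% of the window of Rag1, 41.2% of that of Rag2 and 41.6% of that of Dntt, with 3, 3 and 2 CpG dinucleotides. Xrcc4, Xrcc6 and both windows of Lig4 had 65.2% to 70% G and C and 25 to 28 CpG. The windows of Xrcc5, Nhej1 and Dclre1c had 44.8%, 48.4% and 54.8% G and C and 5, 9 and 8 CpG. G and C content therefore did not separate the end-joining genes from Rag1, Rag2 and Dntt. CpG counts were lower in the windows of Rag1, Rag2 and Dntt (2 to 3) than in all end-joining windows found (5 to 28). Medians over 32817 windows of the same length were 52.4% and 6. The Rag1 window held 3 ETS cores, 1 CCAAT box and 3 E-boxes, the Rag2 window held 2 ETS cores and 1 E-box, and the Dntt window held 1 ETS core and 3 E-boxes. Such short strings are common: an ETS core was found in 93.4% of all windows, an E-box in 66.2% and a CCAAT box in 33.8%. The GC box GGGCGG was found in 32.7% of all windows. It was absent from those of Rag1, Rag2, Dntt and Xrcc5 and from the shown window of Lig4. The NRF-1 core, found in 2.25%, was seen among the genes with windows only in the shown window of Lig4. A match is a description of the letters and not of a bound factor.

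Dntt (ENSMUSG00000025014.12, chr19:41029275-41059525), which encodes TdT, was the gene with the fewest counts in line 1. It was counted 21, 32 and 109 times, or 0.967, 1.62 and 4.28 CPM in lines 1, 2 and 3 (2.29 ± 1.75, SD, n = 3), with exact Poisson 95% intervals of 0.599 to 1.48, 1.11 to 2.29 and 3.51 to 5.16 CPM. Line 3 stood above the other lines without overlap. It was 4.42 times line 1 and 2.64 times line 2, whereas lines 1 and 2 were not told apart by the chi-square test (Benjamini-Hochberg adjusted p = 0.123). The range of Dntt in log2(CPM + 1) was 1.42, and it was 0.41 without line 3. The high line of Dntt was thus not the high line of the Rag genes. In all lines the level was above the 3 counts taken as the detection floor, which correspond to 0.118 to 0.152 CPM.

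The Ku heterodimer encircles broken DNA ends and recruits the rest of the machinery. Xrcc5 (Ku80, ENSMUSG00000026187.8) had the smallest range of the 10 genes, 0.13 in log2(CPM + 1), at 77.9, 85.2 and 78.2 CPM (80.4 ± 4.15, SD, n = 3). Only 14.4% of all genes tested had a smaller one, although the difference still passed the chi-square test (ratio 1.09, Benjamini-Hochberg adjusted p = 0.0186). Xrcc6 (Ku70, ENSMUSG00000022471.13) had 126, 161 and 158 CPM (148 ± 19.3), with line 1 lowest and lines 2 and 3 not told apart by the same test (adjusted p = 0.573). Of the reads of both Ku genes, Xrcc6 took 61.8%, 65.3% and 66.9% in lines 1, 2 and 3. The subunits, whose proteins are stable only as a pair, therefore moved by unequal amounts at the RNA level. Of the exon bases of Xrcc6, 7.69% overlap Desi1 on the opposite strand, the largest overlap among the 10 genes.

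DNA-PKcs is the kinase that Ku recruits, and it activates Artemis, the nuclease that opens the hairpins left by the recombinase. Prkdc (ENSMUSG00000022672.8) had 66.2, 72.1 and 47.5 CPM (61.9 ± 12.9, SD, n = 3), with line 3 lowest. Its ratio of 1.52 lies just above the limit of 1.5, and without a filter on low counts, which changes the scaling slightly, it fell below that limit. Its range in log2(CPM + 1) was 0.59, and it was 0.12 without line 3 and 0.49 without line 2. Dclre1c (ENSMUSG00000026648.18) had 17.3, 15.2 and 20.2 CPM (17.6 ± 2.5), with line 3 highest. Its ratio was 1.33 (chi-square test, Benjamini-Hochberg adjusted p = 0.000692). Line 3 was thus lowest for the kinase and highest for the nuclease, while lines 1 and 2 were not told apart in either gene by the same test (adjusted p = 0.0540 and 0.189). Prkdc took 79.3%, 82.5% and 70.1% of the reads of the pair in lines 1, 2 and 3.

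The ligation complex consists of DNA ligase IV, its scaffold XRCC4 and XLF, which bridges the ends. Lig4 (ENSMUSG00000049717.9) had 17.7, 31.9 and 29.6 CPM (26.4 ± 7.61, SD, n = 3). Line 1 was low, with line 2 at 1.80 times its level. The range of Lig4 in log2(CPM + 1) was 0.81, and it was 0.11 without line 1. In the same gene, lines 2 and 3 were not told apart by the chi-square test (Benjamini-Hochberg adjusted p = 0.246). Xrcc4 (ENSMUSG00000021615.13), whose protein stabilises the ligase, had 8.80, 6.99 and 9.62 CPM (8.47 ± 1.34), so that line 2, the high line of Lig4, was the low line of Xrcc4 (ratio 1.38, adjusted p = 0.0169 in the same test). Lig4 took 66.8%, 82.0% and 75.5% of the reads of the pair in lines 1, 2 and 3. Nhej1 (ENSMUSG00000026162.7) had 2.90, 3.55 and 3.81 CPM (3.42 ± 0.466) from 63, 70 and 97 counts. A difference between lines was not detectable for Nhej1 at this depth (chi-square test, Benjamini-Hochberg adjusted p = 0.290).

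Neighbouring genes moved little beside the end-joining genes and Dntt. The median deviation of genes within 5 Mb moved by 0.01 to 0.13 between lines for all 10 genes. After subtraction, the ranges in log2(CPM + 1) were 1.53 for Rag2, 1.37 for Dntt, 0.79 for Lig4 and 0.59 for Prkdc. The largest movement of neighbours was beside Xrcc4 on chromosome 13, where it reached 0.34 over the 6 genes within 2 Mb. The range of Xrcc4 itself was 0.41, but the pattern differed. The median of these neighbours was lowest in line 3 (-0.13), where Xrcc4 was highest, and the range of Xrcc4 was 0.48 after subtracting it.

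Divided by exon length, the levels placed the Ku genes on top. Mean levels were 33.1 ± 4.30 CPM per kb for Xrcc6 and 31.5 ± 1.62 for Xrcc5 (SD, n = 3), and the values of these genes overlapped between lines. A gap separated Ku from the rest. Rag1 followed at 7.38 ± 5.64 CPM per kb, Rag2 at 5.37 ± 3.40, Lig4 at 5.08 ± 1.46 and Prkdc at 4.70 ± 0.976, and each neighbour in this order overlapped the next. Nhej1 came next at 3.06 ± 0.417, below every line of Prkdc and above every line of Xrcc4. Its 3.41 CPM per kb in line 3 lay above Rag2 in the same line (3.20) and above Rag1 in line 1 (3.40). Xrcc4 at 2.01 ± 0.319, Dclre1c at 1.89 ± 0.268 and Dntt at 0.999 ± 0.765 CPM per kb were lowest and again overlapped. In line 2 Rag1 reached 13.8 CPM per kb, while in line 1 its 3.40 CPM per kb was close to the 3.63 of Rag2 and the 3.41 of Lig4.

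The median range of the 10 genes was 0.50 in log2(CPM + 1), against 0.32 over all genes tested and 0.29 over the 9389 of them with at least 5 CPM on average. The median biological coefficient of variation, estimated by edgeR for each gene over the 3 lines, was 0.329 for the 10 genes and 0.279 for all genes. It was 0.523 for Rag1, 0.479 for Rag2 and 0.682 for Dntt, the last close to the 0.649 that edgeR's trend gives for genes of that low level. The range of Rag1 was large for its level, and that of Dntt was larger than in 94.3% of all genes tested. These values describe the list and do not test it.

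**Figure D3:**
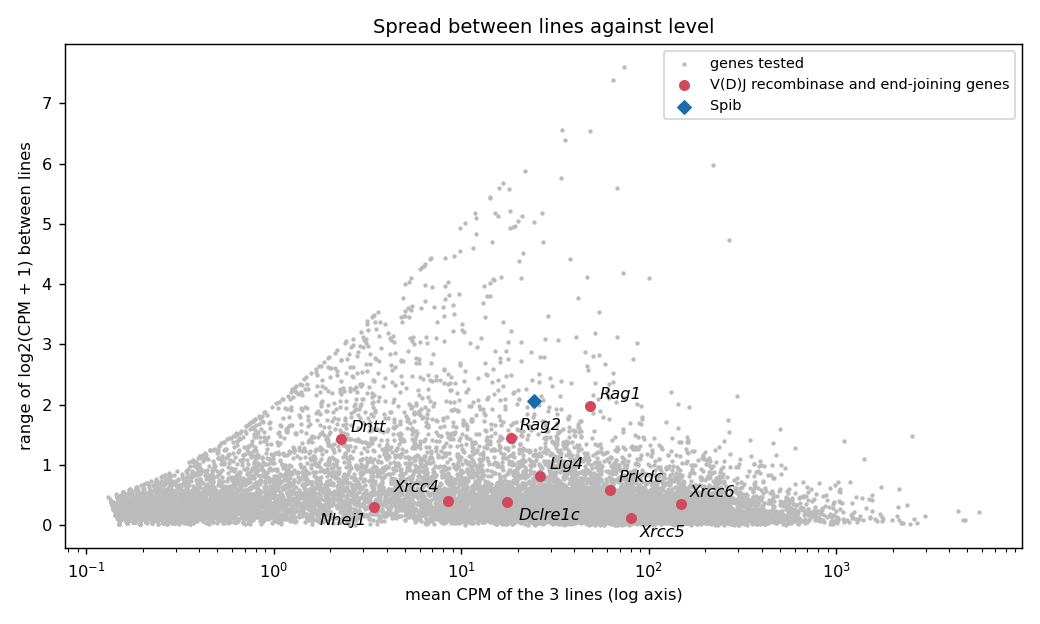
Each grey point is 1 of the 13974 genes tested, with its mean CPM over the 3 lines on a log axis and its range of log2(CPM + 1) between lines. Red points are the 10 genes and the blue diamond is Spib; Rag1, at a range of 1.98, lies above most genes of its level, and Xrcc5, at 0.13, lies near the bottom.

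Other factors of DNA joining and repair were taken from lists written from general knowledge, and each list had a smaller median range than the 10 genes. Over all genes tested, 66.8% passed the chi-square test and 28.4% also had a ratio of at least 1.5. Of 9 other end-joining factors, 3 passed, Polm and Ercc6l2 among them. The median range of the 9 was 0.18 in log2(CPM + 1), and 1 of the 3 also reached the ratio. That gene was Ercc6l2, a helicase-like end-joining factor, at 126, 74.7 and 61.8 CPM in lines 1, 2 and 3. Its 49 measured neighbours within 5 Mb of chromosome 13 moved with it, with median deviations of 0.55, -0.07 and -0.51 against 0.58, -0.16 and -0.43 for Ercc6l2, and their part in the result was not tested. Polm, a polymerase related to TdT, had 11.5, 8.41 and 12.3 CPM.

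Break signalling and end protection had 9 of 13 genes past the test (66.8% of all genes) and none at a ratio of at least 1.5 (28.4% of all genes). Rif1, which protects ends from resection, had 184, 242 and 226 CPM, and Atm, the kinase that answers to breaks, had 101, 130 and 104 CPM. All 5 genes of alternative end joining passed the test and none reached the ratio, Parp1 among them at 718, 826 and 804 CPM. Of 7 genes of homologous recombination 6 passed and none reached the ratio, and Brca1 had 88.9, 114 and 84.4 CPM. Median ranges were 0.35, 0.20 and 0.34 in these 3 lists. Line 2 was the high line of Rif1, Atm, Parp1 and Brca1, as of the Rag genes, but by ratios of 1.15 to 1.35.

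**Figure D4:**
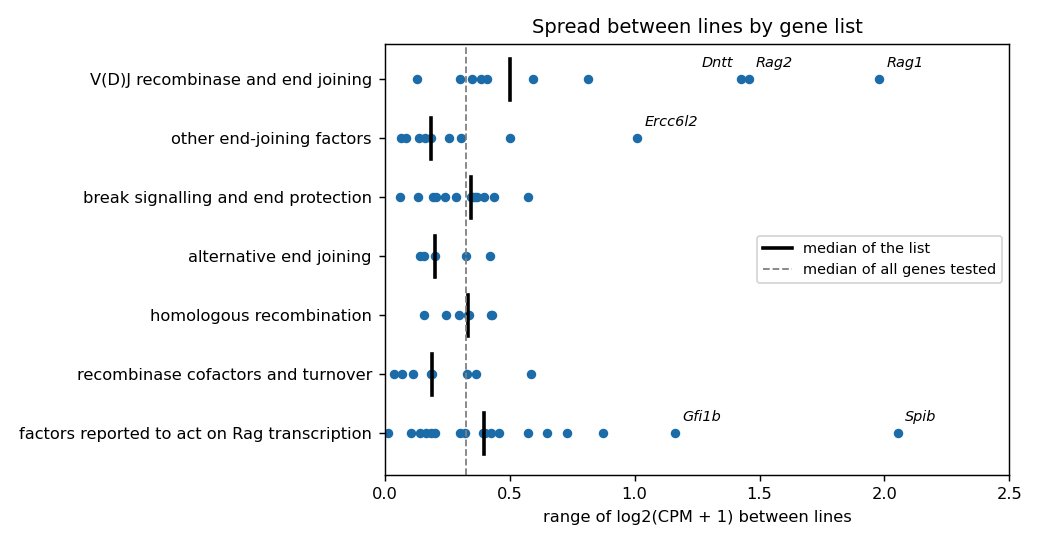
Each point is 1 gene that had enough counts to be tested, placed by its range of log2(CPM + 1) between lines, and each row is a gene list; black bars are medians of the lists and the dashed line is the median of all genes tested, 0.32. Rag1, Rag2 and Dntt have the widest ranges among the joining genes, and Spib and Gfi1b have the widest among the transcription factors.

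Among 8 cofactors of the recombinase and genes of its turnover, 7 passed the test (66.8% of all genes). Only 1 reached a ratio of at least 1.5 (28.4% of all genes). This was Hmgb1, whose protein bends DNA for the recombinase, at 79.0, 75.8 and 52.3 CPM, a ratio of 1.51. RAG2 protein is marked for destruction by cyclin A with CDK2 and removed through SKP2. Ccna2 had 464, 471 and 435 CPM, Cdk2 had 147, 158 and 168 CPM, and Skp2 had 73.4, 79.3 and 69.5 CPM, so that each of these RNAs varied by a ratio of at most 1.14 between lines. Ddb1, a subunit of the ubiquitin ligase that RAG1 associates with, had 971, 969 and 944 CPM.

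Of 18 factors reported to act on Rag transcription or the B lineage programme, 17 passed the test, against 66.8% of all genes tested. With a ratio of at least 1.5, 5 passed, near the share of 28.4% over all genes tested. The median range was 0.40 in log2(CPM + 1). Spib, an ETS factor related to PU.1, was highest in line 2, with 10.5, 46.6 and 15.8 CPM from 227, 920 and 403 counts, and its ratio was 4.46. Ets1 was also highest in line 2, at 97.8, 180 and 141 CPM. Gfi1b, a repressor known to act on the Rag locus, had its lowest level in line 2, at 42.0, 22.6 and 51.9 CPM. Bcl11a had 164, 146 and 98.5 CPM, and Spi1, which encodes PU.1, had 62.3, 62.6 and 98.4 CPM, with line 3 lowest in the first and highest in the second. Foxo1, an activator of both Rag genes, had 263, 277 and 201 CPM, a ratio of 1.38. Pax5, Ebf1 and Tcf12 varied by ratios of 1.08, 1.1 and 1.01, and Tcf12 was the factor that did not pass.

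The pattern of Rag1 over the lines was compared with those of 9388 other genes with at least 5 CPM, by the distance between their deviations in log2(CPM + 1). The nearest gene was Spib, at a distance of 0.0532, and it was the only gene within 0.25. Mctp2 (0.309), Srgap3 (0.328), Iffo1 (0.432) and Zdhhc8 (0.436) followed, and Rag2, at 0.561, was the 23rd nearest. For Rag2 the nearest genes were Ypel2 (0.0423), Pgf (0.0909), Nfkbiz (0.132), Mfge8 (0.149) and Cpne2 (0.156), and 13 genes lay within 0.25. With 3 points a gene, a short distance is a description of these lines and not evidence of a link.

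Line 3, the high line of Dntt, was also the high line of kappa joining segments. Ung, a uracil glycosylase that acts in class switching, was highest in line 1, at 98.3, 77.4 and 61.4 CPM, and its neighbours within 5 Mb moved the same way, with median deviations of 0.26, -0.04 and -0.19 against 0.34, 0.00 and -0.33. Exons of the 5 kappa joining segments, chosen after their values were seen, were counted 1, 5 and 98 times in lines 1, 2 and 3. Joining segments of the heavy chain were counted 38, 34 and 69 times, among them Ighj4 at 17, 14 and 50 counts, and the 3 lambda segments were at 0 in every line. In total 7 of 12 joining segments had enough counts to be tested. Igkj1, Igkj2, Igkj4 and Igkj5 reached the minimum of 10 counts in total only through line 3, and Ighj2 only through line 2. A count of segments past the test would follow from that filter, so none is set against all genes. A count over a joining segment does not tell a rearranged from an unrearranged transcript.

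**Figure D5:**
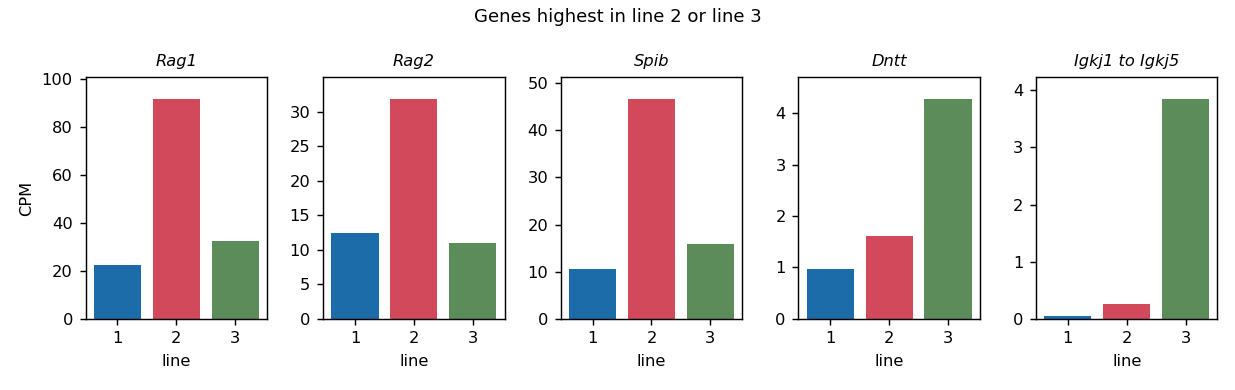
Bars give CPM in lines 1, 2 and 3, each panel with its own axis from 0, for Rag1, Rag2, Spib, Dntt and the sum of the 5 kappa joining segments. Rag1, Rag2 and Spib are highest in line 2, and Dntt and the kappa segments are highest in line 3.

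All 12 markers of B cell precursors were present in every line, among them Igll1, Vpreb1 and Pax5, with summed levels of 4650, 5306 and 4918 CPM, as the labelled cell type has. Of these, 2 passed with a ratio of at least 1.5, against 28.4% of all genes tested. They were Il7r and Cd24a, both with line 2 highest, as Rag1 and Rag2. Of 8 T cell markers, 5 were at 0 in all lines, Cd3e, Cd3g, Cd8a, Cd8b1 and Bcl11b. The summed level of all 8 was 0.152 to 0.432 CPM. No marker list for other lymphoid precursors was used, so other sources of Rag or Dntt RNA were not checked. Myeloid markers summed to 1.75, 2.08 and 3.93 CPM, mostly Lyz2, and 4 of 8 were at 0 in all lines. Erythroid markers summed to 0.157 to 0.355 CPM, with 2 of 5 at 0 in all lines, and all 4 stromal markers were at 0. Markers of mature B and plasma cells summed to 46.7, 38 and 62.1 CPM. Of the 5 tested, all passed with a ratio of at least 1.5, against 28.4% of all genes tested. In 3 of them line 3 was highest, as for Dntt. In the other 2 line 1 was highest, Ms4a1 (2.72, 1.42 and 0.432 CPM) and Jchain (19.5, 8.51 and 11.0 CPM). Their part in the result for Dntt was not tested. In bulk RNA, more cells that express a gene and more RNA per cell cannot be told apart.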

How the data were processed

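RNA was sequenced from 3 BCR::ABL1+ Cdk6 KM/KM cell lines. The authors deposited raw read counts per gene: lanes were merged, reads trimmed with Trimmomatic, aligned to mm10 (GRCm38) with STAR and counted over Gencode exons with featureCounts. The library kit named in the labels (SENSE) is not the one named in the methods, reads were single-end, and the strand setting and the handling of reads with several matches were not given in the sources used here. The 6 other columns of counts in the table were not used.

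Counts were scaled with TMM (edgeR 4.0.16, R 4.3.3) to CPM. Genes with at least 10 counts in total (13974) were tested for equal shares between libraries by a chi-square test (scipy 1.17.1) with Benjamini-Hochberg adjustment, and a ratio of highest to lowest CPM of at least 1.5 was added, with levels under 3 counts set to 3 counts. A chi-square test holds counting error only, so that it compares libraries. Ranges were taken on log2(CPM + 1). Exon lengths were those of Gencode exons merged over all transcripts of a gene, and promoter windows were from RefSeq. These exons came from a later Gencode release than the one the paper names for counting. Merged exons that a line does not use lower its level per kb, so the order of genes per length is approximate. The test was checked on simulated counts that held counting error only, which does not check it against variation between real lines.

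The genes and lists were chosen with earlier results of these data known, among them the difference in Rag1 between these lines. Genes of other lists were named by rule: in each list the gene with the highest mean CPM, and those that passed with a ratio of at least 2 and a mean of at least 1 CPM. For Rag1 and Rag2 the 5 nearest genes in pattern were named. Genes outside this rule (Polm, Atm, Hmgb1, Ccna2, Cdk2, Skp2, Ets1, Bcl11a, Spi1, Foxo1, Ebf1 and Tcf12) were named after their values were seen, and some genes of the lists are not reported here by name. Intervals cover counting error only. Other scalings, filters, ratios and pseudocounts, and each line left out in turn, were tried.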

Additional observations from a re-analysis of the deposited data

How the results depend on the processing

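DESeq2 size factors, unscaled library sizes, a filter of at least 10 counts in every line and a pseudocount of 0.1 CPM left the same 5 genes past the test and the ratio of 1.5. Without a filter on low counts Prkdc fell below the ratio and 4 remained. At a ratio of at least 2, 3 of the 10 genes and 2579 of all genes passed. With each line left out in turn, 2 to 4 of the 10 genes passed with the ratio (1882 to 2817 of all genes) and 5 to 7 by the adjusted p alone (6098 to 7267 of all genes), and the median range of the 10 genes was 0.30 to 0.40. Without line 1 Lig4 no longer met both the test and the ratio, without line 2 Rag1, Rag2 and Prkdc no longer did (Rag1 and Prkdc still passed the test and missed only the ratio), and without line 3 Dntt and Prkdc no longer did. The range of Rag1 was then 0.50 without line 2, that of Dntt 0.41 without line 3, that of Lig4 0.11 without line 1 and that of Prkdc 0.49 without line 2 and 0.12 without line 3. These counts rest on pairs of lines, which leave fewer comparisons. Of 198 values compared over all settings, 180 kept their call or moved by less than a set limit, but this total mixes unlike measures. With a line left out, 6 of 15 counts and medians moved by less than 1.5 times, against 21 of 23 under other settings. Calls of single genes were kept in 24 of 30 and 49 of 50 cases. All mean levels moved by less than the spread between lines. Leaving out 1 of 3 lines can hardly move a mean further, so this says little. No paired analysis was possible because only 1 group was tested, with no second group to pair its lines with. Depth limits Dntt and Nhej1, with 21 to 109 and 63 to 97 counts a library, and no replicate library of a line was measured.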
